A study of Mus musculus with 9 samples.

Results

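Cd74 and 5 MHC class II genes (H2-Aa, H2-Ab1, H2-Eb1, H2-DMa and Ciita) were followed over 9 arrays of mouse stomach cells. The members were all probe sets that the array's annotation pairs with exactly 1 gene, that gene being one of these, which gave 14 probe sets of 6 genes, out of 45037 probe sets of which 34945 name 1 gene (18193 genes). Cd74 was chosen by its log2 differences between these groups, so its values are described without a test. The other 5 genes were taken with it as the family it serves.

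Gene expression was measured in 3 groups of 3 samples, each on its own Affymetrix array, all from C57BL/6 mice. The Isthmus group was Mist1+ Tomato+ cells of the gastric corpus taken after ablation of Lgr5+ cells, the Parietal group was gastric parietal cells, and the Chief group was Mist1+ Tomato+ corpus cells without ablation. Both Mist1+ Tomato+ groups were isolated by fluorescence-activated sorting. The sources used here do not give how Tomato was driven, how Lgr5+ cells were ablated, the age of the mice, how the parietal cells were collected, or whether a group's 3 samples were 3 animals. The p-values reflect only the scatter among these 9 arrays, part of which may be technical.

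MHC class II molecules are pairs of an alpha and a beta chain that display peptides from the endosome to CD4+ T cells. Cd74, the invariant chain, binds new pairs in the endoplasmic reticulum, fills their groove and guides them to the endosome, where it is cut and H2-DM exchanges the remaining fragment for peptide. Ciita is the coactivator that switches these genes on. It is found in professional antigen-presenting cells and is induced by interferon gamma in other cells, including epithelium.

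Each probe set has 1 log2 signal on each array. No detection calls were used, so each value is read against the median of its own array, 5.92 to 6.32 on Isthmus arrays, 5.80 to 5.86 on Parietal arrays and 6.38 to 6.70 on Chief arrays, as a stand-in for background. Of the tested list of 8 parietal cell markers, which includes the proton pump genes Atp4a and Atp4b, 8 were higher in Parietal than in Chief samples by limma (8.7% of all probe sets tested). Of 7 tested chief cell markers 5 were lower in Isthmus (0.888% of all) and 6 in Parietal (11.2% of all) than in Chief samples. Some markers were bright in the other group too, with Atp4b at 12.55 to 12.75 in Chief samples and the chief cell marker Pgc at 12.92 to 13.45 in Parietal samples. Others were not: Slc26a7, a parietal cell marker, lay below the array medians on all Chief arrays. Lgr5 was at 2.93, 4.83 and 5.97 on Isthmus arrays and at 8.05, 7.54 and 9.36 on Chief arrays. Chief replicate 3 stood apart by connective tissue genes, with Col1a1 at 12.48 against at most 7.26 on any other array, and values without it are given below. In these bulk samples, fewer cells of a type and less RNA per cell cannot be told apart.

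Cd74 was graded over the groups. Its 1 probe set, 1425519_a_at, was at 6.69, 7.94 and 5.34 log2 in Isthmus samples, 5.04, 2.71 and 2.69 in Parietal samples and 10.05, 9.13 and 8.46 in Chief samples. The 3 groups did not overlap. All Chief arrays lay above their array medians, as did Isthmus replicates 1 and 2, while Isthmus replicate 3 and all Parietal arrays lay below. The means were 6.66 ± 1.3 in Isthmus, 3.48 ± 1.35 in Parietal and 9.21 ± 0.80 in Chief samples (SD, n = 3 each). Measured against the array medians, Cd74 was at least 4.69-fold lower in Isthmus than in Chief samples, at least 10.4-fold lower in Parietal than in Chief samples and at least 1.77-fold higher in Isthmus than in Parietal samples. Over 15 other ways of scaling the values or choosing the arrays, the difference ranged from -3.20 to -1.90 for Isthmus minus Chief, from -6.89 to -3.08 for Parietal minus Chief and from 1.15 to 3.96 for Isthmus minus Parietal. The smallest differences from Chief samples fell short of the folds written "at least", which allow only for values under the array medians.

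**Figure D1:**
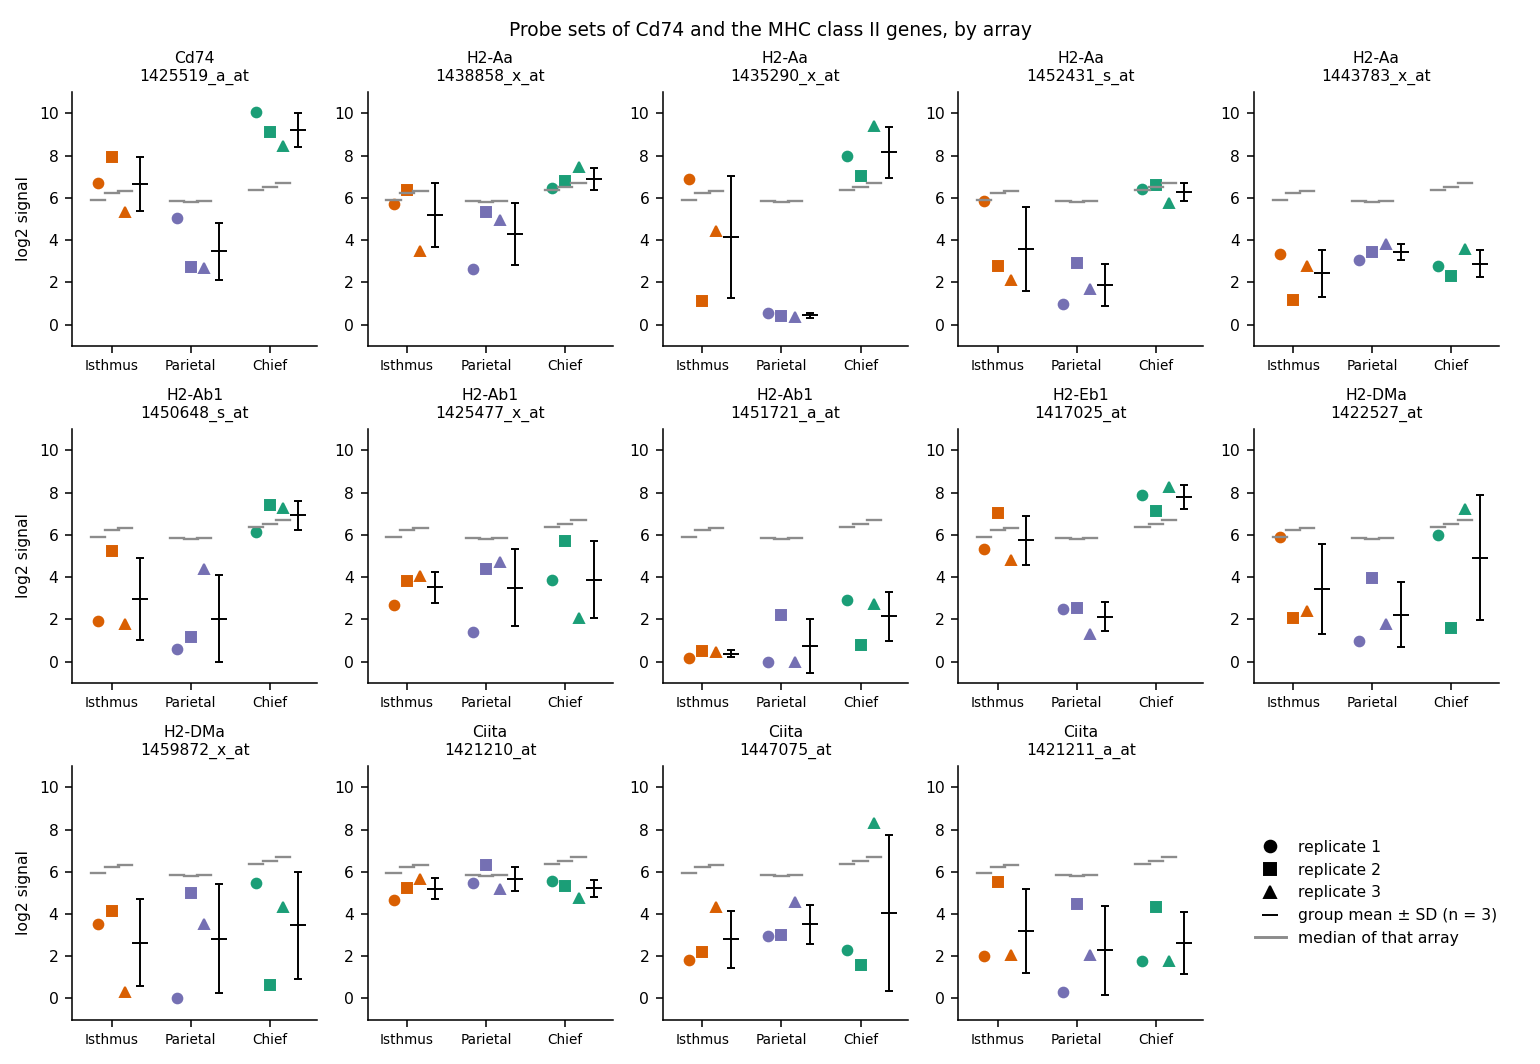
Log2 signal of all 14 probe sets of Cd74, H2-Aa, H2-Ab1, H2-Eb1, H2-DMa and Ciita on Isthmus, Parietal and Chief arrays; symbols are replicates, black marks are group means with SD (n = 3) and grey lines are each array's own median. Cd74, the H2-Aa probe set 1435290_x_at and H2-Eb1 step down from Chief over Isthmus to Parietal with no overlap, while the Ciita probe sets lie below the array medians on nearly all arrays.

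H2-Eb1, the beta chain of the I-E molecule, had the same order. Its probe set 1417025_at was at 5.35, 7.05 and 4.82 log2 in Isthmus samples, 2.49, 2.54 and 1.32 in Parietal samples and 7.90, 7.15 and 8.28 in Chief samples. No groups overlapped, although Isthmus replicate 2 lay only just under Chief replicate 2. In Parietal samples H2-Eb1 was lower than in Chief samples by 5.66 log2 as measured, and by at least 3.84-fold against the array medians (limma adjusted p = 0.00243), where 11.2% of all probe sets tested were called lower. It was called in all 20 alternatives, with adjusted p-values of 0.00151 to 0.0256. This probe set was above the array median on 3 Chief arrays, 1 Isthmus array and 0 Parietal arrays, so a high Chief level was built in. Between Isthmus and Chief samples the difference of -2.04 (SE 1.07) did not pass (limma adjusted p = 0.389; 0.888% of probe sets were called lower), nor in any of the 20 alternatives (0.122 to 0.614). H2-Eb1 was called higher in Isthmus than in Parietal samples, by 3.62 (limma adjusted p = 0.0271; 12.4% of probe sets were called higher). The size of that step rests on values under the array medians: with every value floored at its array's median it was 0.59 and not called (adjusted p = 0.347), and it was called in 12 of 20 alternatives. It ended with a pseudocount of 16 or 64 (adjusted p = 0.0689 and 0.167; difference 1.81 and 0.85), with only the 2 groups in the fit (0.0763), and without Isthmus replicate 1, Isthmus replicate 2, Parietal replicate 3, or Chief replicate 3 and Parietal replicate 1 together (0.0526, 0.118, 0.0697 and 0.0651).

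H2-Aa, the alpha chain of the I-A molecule, had 4 probe sets, which differed in pattern. By 1435290_x_at it was at 6.90, 1.13 and 4.41 log2 in Isthmus samples, 0.55, 0.41 and 0.35 in Parietal samples and 7.98, 7.06 and 9.41 in Chief samples. The 3 groups did not overlap, but the Isthmus samples were spread from just under the Chief samples almost to the Parietal ones. The fall in Parietal against Chief samples, at least 4.97-fold, was called (limma difference -7.71, adjusted p = 0.00445). The call ended in 1 of 19 alternatives, without Chief replicate 3 and Parietal replicate 1 together (0.0525). This probe set too was above the array median on 3 Chief arrays, 1 Isthmus array and 0 Parietal arrays, so a high Chief level was built in. The difference between Isthmus and Chief samples was -4.00 (SE 1.60, limma adjusted p = 0.253, 0.085 to 0.47 over the alternatives). Between Isthmus and Parietal samples it was 3.71 (limma adjusted p = 0.118), and it was called in 1 of 19 alternatives, without Isthmus replicate 2 (0.0252).

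By 1438858_x_at, H2-Aa was at 5.69, 6.37 and 3.47 log2 in Isthmus, 2.61, 5.33 and 4.97 in Parietal and 6.45, 6.81 and 7.47 in Chief samples. Chief samples were highest again without overlap, but neither the difference from Isthmus (-1.73, limma adjusted p = 0.501) nor that from Parietal samples (-2.61, adjusted p = 0.129) passed, and the second was called only with values floored at the array median (adjusted p = 0.0341). By 1452431_s_at, H2-Aa was at 5.83, 2.79 and 2.10 in Isthmus, 0.98, 2.93 and 1.67 in Parietal and 6.41, 6.59 and 5.78 in Chief samples, with Isthmus replicate 1 inside the Chief range. Parietal samples lay below Chief samples without overlap. It lay above the array median on only 2 arrays and was not among the probe sets tested; without the filter on dim probe sets its adjusted p was 0.337 for Isthmus against Chief and 0.0224 for Parietal against Chief (limma). The last H2-Aa probe set, 1443783_x_at, lay between 1.17 and 3.81 on all 9 arrays, below every array median. Suffixes x and s mark probe sets that can also bind related transcripts, which for the class II genes is a limit on naming the chain measured.

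Class II promoters share a set of boxes just before the gene's start, among them the Y box, which is bound by NF-Y beside the RFX complex on which Ciita docks. The promoters of H2-Aa and H2-Eb1 are shown because these are the genes beside Cd74 whose arrays separated in all 3 groups. Both come from RefSeq (GRCm38.p6) and run 5′ to 3′ on the gene's strand, from 250 bases before the start to 50 after it. The H2-Aa window is chr17:34287774-34288073 on the minus strand and the H2-Eb1 window is chr17:34305617-34305916 on the plus strand. Capitals mark the Y box, searched as CTGATTGG on both strands.
H2-Aa: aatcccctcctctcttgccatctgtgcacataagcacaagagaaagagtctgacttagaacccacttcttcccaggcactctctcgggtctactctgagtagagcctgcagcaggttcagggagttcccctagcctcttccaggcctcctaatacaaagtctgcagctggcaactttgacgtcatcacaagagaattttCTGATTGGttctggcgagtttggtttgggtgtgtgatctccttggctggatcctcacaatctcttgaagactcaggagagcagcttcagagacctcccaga
H2-Eb1: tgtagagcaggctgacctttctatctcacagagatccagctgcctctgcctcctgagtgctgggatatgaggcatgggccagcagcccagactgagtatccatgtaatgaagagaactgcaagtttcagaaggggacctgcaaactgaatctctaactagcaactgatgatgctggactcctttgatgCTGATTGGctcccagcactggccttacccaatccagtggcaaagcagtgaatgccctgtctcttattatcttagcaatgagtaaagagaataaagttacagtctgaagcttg
The Y box began 51 bases before the start in H2-Aa and 62 bases before it in H2-Eb1, on the gene's own strand in both. It was found in 4.1% of all 32851 promoter windows in the table, and its letters were chosen with these promoters in view. Among the other class II genes in the table it was found in H2-Oa and H2-Eb2, and not in the windows of H2-DMa, H2-DMb1, H2-DMb2 and H2-Ob.

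H2-Ab1, the beta chain of I-A, showed the step by 1 of its 3 probe sets. By 1450648_s_at it was at 1.94, 5.22 and 1.77 log2 in Isthmus, 0.58, 1.15 and 4.38 in Parietal and 6.14, 7.40 and 7.26 in Chief samples. Every Chief sample lay above every other, and Isthmus and Parietal samples overlapped. Only Chief replicates 2 and 3 lay above their array medians, so this probe set was not among those tested; tested without the filter on dim probe sets it gave an adjusted p of 0.206 for Isthmus against Chief and 0.0241 for Parietal against Chief (limma). The other H2-Ab1 probe sets, 1425477_x_at at 1.40 to 5.73 and 1451721_a_at at 0 to 2.90, lay below the median of every array, and by 1451721_a_at the Isthmus samples lay below the Chief samples without overlap.

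H2-DMa, a chain of the H2-DM editor that loads peptide, was low and scattered. By 1422527_at it was at 5.88, 2.04 and 2.41 log2 in Isthmus, 0.95, 3.94 and 1.78 in Parietal and 5.98, 1.57 and 7.20 in Chief samples, so that the Chief samples spanned nearly the whole range and only replicate 3 exceeded its array median. Its other probe set, 1459872_x_at, lay between 0 and 5.46 on all arrays with every pair of groups overlapping.

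Ciita, the coactivator, was near or under the array medians in all groups. By 1421210_at it was at 4.67, 5.23 and 5.66 log2 in Isthmus, 5.45, 6.30 and 5.20 in Parietal and 5.57, 5.31 and 4.77 in Chief samples, with the groups overlapping and only Parietal replicate 2 above its median. By 1447075_at it was at 1.83, 2.22 and 4.35 in Isthmus, 2.96, 3.00 and 4.56 in Parietal and 2.28, 1.59 and 8.30 in Chief samples. Chief replicate 3 alone stood high there. The third probe set, 1421211_a_at, stayed between 0.30 and 5.51, under every array median. None of the 3 Ciita probe sets was among those tested, and tested without the filter on dim probe sets, their lowest adjusted p over the 3 comparisons was 0.76 (limma).

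Over all 14 probe sets, Isthmus samples lay wholly below Chief samples for 6 probe sets of 4 genes (Cd74, H2-Aa, H2-Ab1 and H2-Eb1), where 10.2% of all 34945 probe sets naming 1 gene did so, and wholly above for 0 (6.78% of all). Among the 6, the H2-Ab1 probe set 1451721_a_at lay below every array median, at 0.17 to 0.50 in Isthmus and 0.80 to 2.90 in Chief samples. Parietal samples lay wholly below Chief samples for 6 probe sets of the same 4 genes, against 16.6% of all, and wholly above for 0 (11.4% of all). Isthmus samples lay wholly above Parietal samples for 3 probe sets, against 15.9% of all, a share close to the background, and wholly below for 0 (13.9% of all). The median difference of the 14 was -1.60 for Isthmus minus Chief (-0.10 over all probe sets naming 1 gene), -2.01 for Parietal minus Chief (-0.23) and 0.90 for Isthmus minus Parietal (0.07). Group means were ordered Parietal, Isthmus, Chief from low to high for 8 of the 14, against 21.6% of all, and all 9 arrays were separated in that order for 3, those of Cd74, H2-Aa and H2-Eb1, against 0.721% of all. Cd74, which was chosen for this pattern, is 1 in each of these counts. In Chief samples 18 of the 42 member values lay above the array median, against 5 of 42 in Isthmus and 1 of 42 in Parietal samples.

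Without Chief replicate 3, Cd74 differed more from Chief samples, by -2.93 in Isthmus and -6.11 in Parietal samples, since that replicate had the lowest Cd74 of its group. H2-Eb1 differed by -1.79 and -5.41 and H2-Aa by 1435290_x_at by -3.37 and -7.08. The difference of the Ciita probe set 1447075_at turned to 0.87 in Isthmus and 1.57 in Parietal samples without it, against -1.26 and -0.55 with it.

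Cells of the immune system carry class II molecules, so their markers were read on the same arrays. Of 39 marker genes of leukocytes, B cells, macrophages and monocytes, dendritic cells and T cells, 25 lay above the array median on none of the 9 arrays. Between 2 and 4 of the 39 were above the median on Isthmus arrays, 2 to 5 on Parietal arrays and 5, 3 and 9 on Chief replicates 1, 2 and 3. Lcp1, an actin bundling protein, was above it on all 9, and of the B cell markers Ms4a1 was above it on Parietal replicate 2 and Ighm on Parietal replicate 3 and Chief replicate 1. Cd79a, a chain of the B cell receptor, was at 1.56 to 2 log2 in Isthmus, 1.06 to 3.76 in Parietal and 0.39 to 1.62 in Chief samples. Csf1r, the growth factor receptor of macrophages, was at most 4.45, 3.77 and 5.27 in these groups, and Itgax, an integrin of dendritic cells, at most 4.92, 4.77 and 4.80. These 3 lay below the array medians on all 9 arrays. Other markers lay above them on Chief replicates 1 and 2, where Cd74 was brightest: besides Lcp1, these were Tyrobp, Fcer1g, Ighm and Zbtb46 on replicate 1 and Mrc1 and Zbtb46 on replicate 2.

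A few markers were raised on all Chief arrays or on Chief replicate 3 alone. Ptprc, the pan-leukocyte phosphatase CD45, was at 8.80 on Chief replicate 3 and at most 4.47 elsewhere, and the macrophage complement genes C1qb and C1qc were at 8.39 and 6.86 there. Zbtb46, a transcription factor known from classical dendritic cells, was at 5.47, 5.45 and 4.56 in Isthmus, 5.49, 4.67 and 5.29 in Parietal and 7.24, 7.25 and 8.04 in Chief samples. It was above the array median on each Chief array and on no other, so it was tested only because it was high there (limma adjusted p = 0.196 for Isthmus and 0.0637 for Parietal against Chief). Unlike Cd74, Zbtb46 had like means in Isthmus and Parietal samples (5.16 and 5.15). It was highest on Chief replicate 3, where Cd74 was lowest of its group. The other tested member probe sets were highest of the Chief samples there: H2-Eb1 (8.28) and H2-Aa by 1435290_x_at (9.41) and 1438858_x_at (7.47). Among the dimmer ones, H2-DMa by 1422527_at was highest there (7.20) and H2-Aa by 1452431_s_at lowest (5.78). The other dendritic cell markers lay below the array median on all 9 arrays. The summed linear signal of the 7 dendritic cell markers was 95 to 120 in Isthmus, 67.2 to 108 in Parietal and 174 to 294 in Chief samples. Most of that sum on each Chief array came from Zbtb46. Xcr1, another of the 7, was at 3.88 to 5.19 in Isthmus, 1.49 to 5.20 in Parietal and 0.43 to 3.56 in Chief samples. In the same order of groups, the sum for the 10 macrophage markers was 225 to 314, 86.2 to 102 and 140 to 866. For the 7 B cell markers it was 78.7 to 152, 106 to 128 and 96.3 to 355. For the 6 T cell markers it was 79.6 to 137, 81.4 to 137 and 117 to 146. For the 9 general leukocyte markers it was 4050 to 4821, 5858 to 6970 and 4699 to 6071, most of it from Lcp1. The part of these cells in the class II values was not tested.

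**Figure D2:**
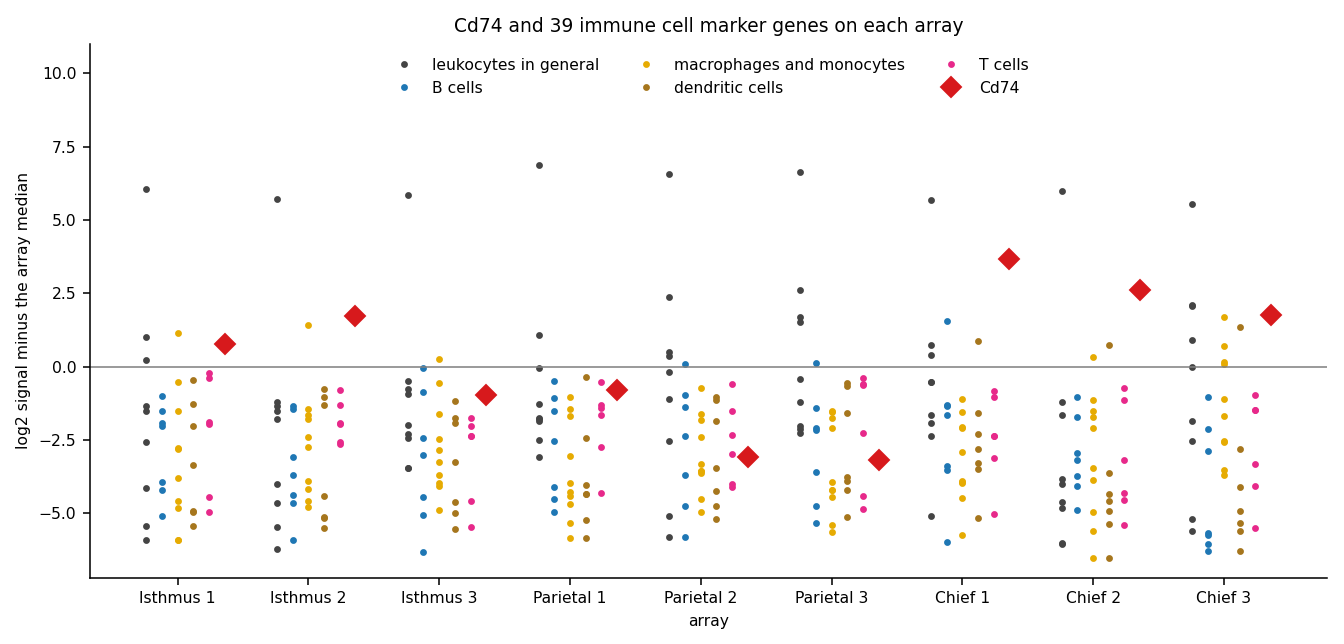
Log2 signal minus the array's median for 39 immune marker genes (dots, coloured by list) and Cd74 (red diamond) on each array. Cd74 is above the line on the 3 Chief arrays and on Isthmus 1 and 2, while most markers lie below it and the topmost dot on every array is Lcp1.

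The DNA-binding partners of Ciita were read in the same way. Of 7 genes of the class II transcription complex, 0 passed for Isthmus against Chief (median difference 0.10; 0.234% of all probe sets tested were called higher; 1 with an unadjusted p under 0.05), 1 was lower in Parietal than in Chief samples (11.2% of all) and 1, the same gene, was higher in Isthmus than in Parietal samples by limma (12.4% of all), counts near the background for 7 genes. That gene was Rfx5, the largest subunit of the RFX complex, which was at 8.24, 10.25 and 9.42 log2 in Isthmus, 7.78, 6.79 and 7.99 in Parietal and 10.62, 10.60 and 10.29 in Chief samples. Chief samples lay above all others without overlap, and Isthmus replicate 1 was nearest to the Parietal samples. The difference was -2.98 for Parietal minus Chief (limma adjusted p = 0.00148, called in all 21 alternatives), 1.78 for Isthmus minus Parietal (0.0263, called in 13 of 21, highest 0.117) and -1.2 for Isthmus minus Chief (0.29, 0.192 to 0.652 over the alternatives).

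Other genes act on class II molecules in the endosome. Of 8 tested, 0 passed for Isthmus against Chief (median -0.18; 2 with an unadjusted p under 0.05), and in Parietal against Chief samples 1 was higher (8.7% of all probe sets tested) and 1 lower (11.2% of all; median -0.30). In Isthmus against Parietal samples 1, Ifi30, was higher (12.4% of all) and 2, Ctsd and Ctsb, were lower (10.1% of all; median 0.30). Ctsd, the aspartic protease cathepsin D, was higher in Parietal samples (13.25 ± 0.05 against 12.63 ± 0.05 in Chief, SD, n = 3 each; limma adjusted p = 0.00254), a call that ended with no intensity trend in the fit (0.0946). Ifi30, the thiol reductase that unfolds antigens, was lower there (11.65 ± 0.26 against 12.62 ± 0.21 in Chief, SD, n = 3 each; adjusted p = 0.00169), a call that ended with each array centred on its median (0.396). In Isthmus against Parietal samples the limma difference was 0.85 for Ifi30 (adjusted p = 0.00324, called in 19 of 21 alternatives), -1.05 for Ctsd (5.62e-05, called in all 21) and -0.42 for Ctsb, cathepsin B (0.0162, called in 15 of 21). Ctss, the cathepsin that trims the invariant chain, was at 6.00, 1.89 and 7.45 in Isthmus, 3.74, 3.20 and 0.03 in Parietal and 4.38, 2 and 6.95 in Chief samples, with every pair of groups overlapping. The class II genes outside the members had a probe set for 5 of 6 (H2-DMb2, H2-Oa, H2-Ob, H2-Eb2 and H2-Ea), and 0 were bright enough to be tested. H2-Ea, the alpha chain that would pair with H2-Eb1, is a pseudogene in C57BL/6 mice and was at 3.10 to 3.89 in Isthmus, 1.96 to 4.65 in Parietal and 0 to 2.46 in Chief samples.

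Class I genes present peptides of the cell's own proteins. Of 17 tested, 0 passed for Isthmus against Chief (median 0.60; 4 with an unadjusted p under 0.05), 6 were lower and 0 higher in Parietal than in Chief samples (11.2% and 8.7% of all probe sets tested), and 8 were higher and 0 lower in Isthmus than in Parietal samples by limma (12.4% and 10.1% of all). Among these 8, H2-M3 and Nlrc5 were above the array median on 3 Isthmus arrays, 1 Chief array and 0 Parietal arrays, so a high Isthmus level was built in. H2-D1, a class I heavy chain, was at 12.54, 12.45 and 12.53 log2 in Isthmus, 10.52, 9.24 and 9.75 in Parietal and 12.25, 12.38 and 12.44 in Chief samples. Parietal samples were lowest without overlap, with a difference of -2.52 from Chief samples (limma adjusted p = 4.23e-05), while Isthmus samples differed by 0.15 from Chief samples (adjusted p = 0.833, 0.315 to 0.927 over the alternatives). Psmb9, an interferon-inducible proteasome subunit, averaged 11.07 ± 0.48 in Isthmus, 7.39 ± 1.08 in Parietal and 9.77 ± 0.31 in Chief samples (SD, n = 3 each), and H2-M3, a class Ib heavy chain, 7.97 ± 0.30, 3.24 ± 0.91 and 7.30 ± 2.23 (SD, n = 3 each). B2m, the light chain of class I molecules, was at 13.07, 13.48 and 13.15 in Isthmus, 12.62, 12.36 and 12.49 in Parietal and 14.02, 13.52 and 13.50 in Chief samples, with the groups in the order of Cd74 and no overlap. Whether class I and class II genes differed in their response was not tested.

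The interferon gamma pathway induces Ciita in epithelium. In Isthmus samples 11 of its 12 tested genes had a higher mean than in Chief samples (median 1.39, against 0.03 over all genes tested). Among them, Cxcl10 and Gbp7 were bright enough to be tested mostly through Isthmus arrays. Of the genes too dim to be tested, Ifng, Cxcl9 and Socs1 had lower means in Isthmus than in Chief samples, and Gbp2 and Gbp3 higher ones. By limma, 1 of the 12 was called higher (0.234% of all probe sets tested) and 0 lower (0.888% of all), 4 having an unadjusted p under 0.05. That gene was Jak2, a kinase bound to the interferon gamma receptor, at 11.35, 11.70 and 11.26 log2 in Isthmus, 10.19, 9.84 and 10 in Parietal and 9.82, 9.53 and 9.92 in Chief samples (limma difference 1.68 for Isthmus minus Chief, adjusted p = 0.0146, called in 16 of 21 alternatives, highest 0.0682). Irf1, a transcription factor induced by the pathway, was at 10.82, 11.05 and 10.55 in Isthmus, 7.79, 6.34 and 7.43 in Parietal and 9.25, 9.04 and 9.19 in Chief samples. Its Isthmus samples lay above all others, the difference from Chief samples missing the threshold (limma difference 1.65, adjusted p = 0.0975, 0.0471 to 0.251 over the alternatives), and it was lower in Parietal than in Chief samples (-1.97, adjusted p = 0.00694), a call that ended with each array centred on its median (-1.28, adjusted p = 0.0531). Of the 12 genes, 6 were higher in Isthmus than in Parietal samples (12.4% of all probe sets tested) and 3 were lower in Parietal than in Chief samples (11.2% of all). The Jak2 call ended with no intensity trend and without Isthmus replicate 1, Isthmus replicate 2, Chief replicate 1, or Chief replicate 3 and Parietal replicate 1 together (0.0682, 0.0558, 0.0557, 0.0584 and 0.0515). Ifng itself was at most 4.56 on any array, under every array median.

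**Figure D3:**
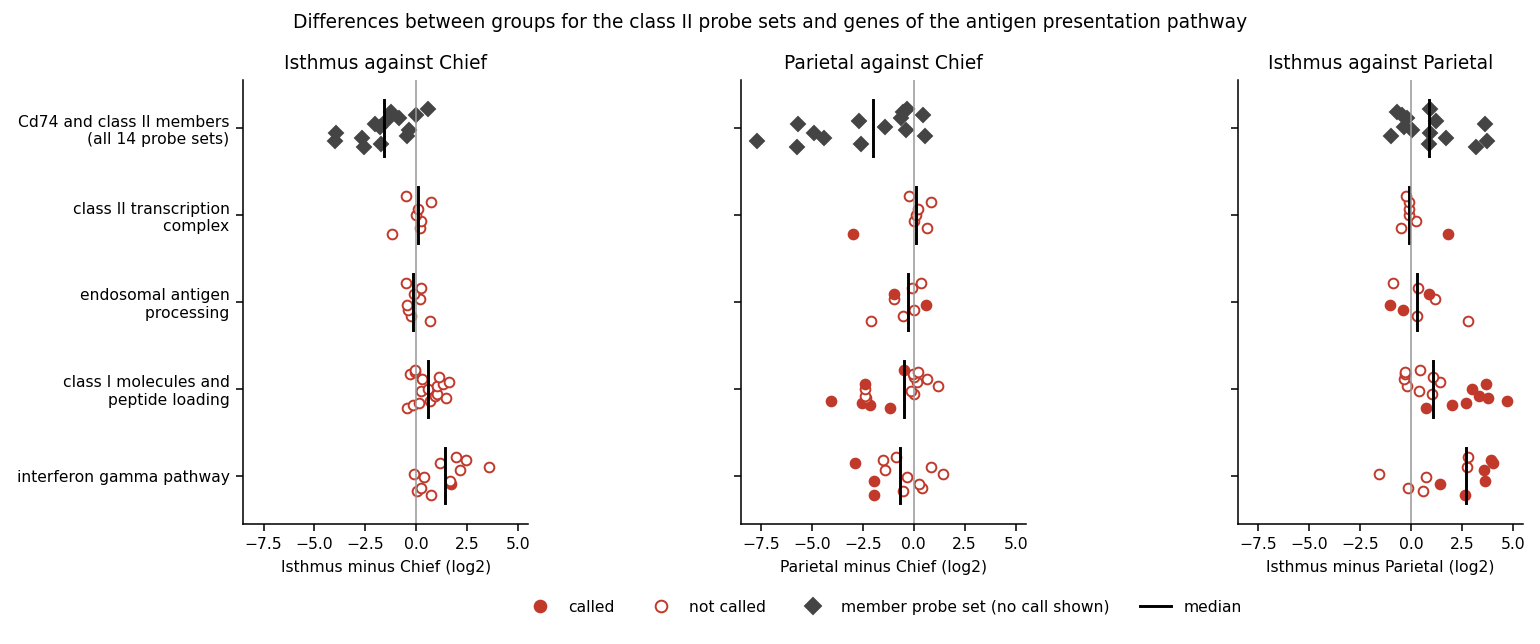
Differences in log2 signal between groups for the 14 member probe sets (diamonds) and for the tested genes of 4 lists (circles, filled where called by limma at an adjusted p under 0.05); black bars are medians. In the panel for Isthmus against Chief the member median is -1.60 while those of class I (0.60) and interferon gamma genes (1.39) lie to the right of 0. These medians are not of like sets: the members include dim probe sets, several per gene, and Cd74, chosen for its differences. Each list gene has 1 tested probe set.

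By Pearson correlation with Cd74 over the 9 arrays, among probe sets tested, the 8 closest genes were Cblif (r = 0.98), Nucb2, Fst, Cckar, B2m, Clps, Usp48 and Phlda3 (r = 0.96). The arrays fall into 3 groups and share them, so these values mostly rank the likeness of the group means and carry no test. Cblif is gastric intrinsic factor, and it was at 11.94, 12.04 and 10.85 log2 in Isthmus, 10.32, 8.43 and 8.90 in Parietal and 14.79, 14.28 and 14.42 in Chief samples. Cckar, the receptor for cholecystokinin, was at 10.52, 9.68 and 8.38 in Isthmus, 6.75, 5.38 and 4.15 in Parietal and 13.58, 12.31 and 12.58 in Chief samples. Nucb2, the precursor of nesfatin, averaged 9.44 in Isthmus, 5.48 in Parietal and 11.99 in Chief samples, and Fst, the activin-binding protein follistatin, 6.07, 3.14 and 7.81. All 3 groups were separated in the order of Cd74 for 6 of the 8 (0.721% of all probe sets), which the choice by likeness largely fixed, and not for Clps, pancreatic colipase, and Usp48. As in Cd74, Isthmus replicate 3 was the lowest Isthmus sample and Parietal replicate 1 the highest Parietal sample for Cblif. The lowest Chief and Parietal samples differed, being replicate 3 of each group for Cd74 and replicate 2 of each group for Cblif. The 4 further genes closest to the mean of Cd74, H2-Aa (1438858_x_at) and H2-Eb1 were Isg20 (r = 0.98), an exonuclease induced by interferon, Sez6l2, Rgs19 and Usp53.

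**Figure D4:**
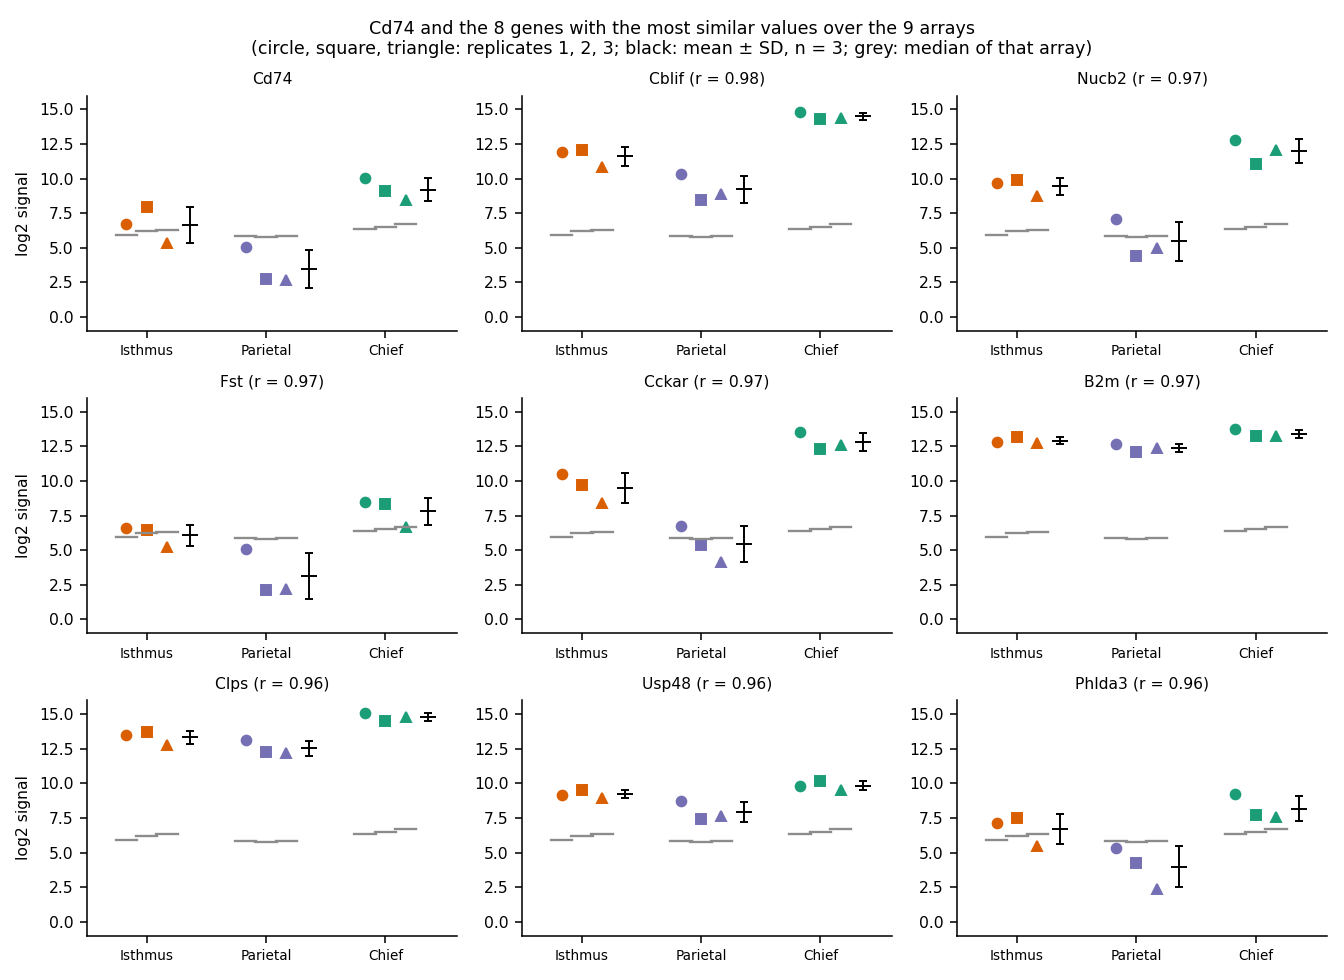
Log2 signal of Cd74 and of the 8 genes with the highest Pearson correlation to it over 9 arrays; symbols are replicates, black marks group means with SD (n = 3), grey lines array medians. All panels step down from Chief over Isthmus to Parietal, over a range that is widest for Cckar and narrowest for B2m among those shown.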

How the data were processed

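The deposited values are log2 signals, and the submitters' processing notes name MAS5; no version, and no account of how logs were taken or why values stop at 0, is given there. Base 2 was settled from the values: after removing 2% at both ends, every array's mean linear signal lay between 496 and 497. Names came from GEO's annotation of the platform: 34945 named 1 gene, 932 several and 9160 none, and 34741 matched a RefSeq table (GRCm38.p6) by gene identifier. The 21393 that named 1 gene and exceeded the array median on at least 3 of 9 arrays entered 1 model in limma 3.58.1 under R 4.3.3 (9 arrays, 3 group means, intensity trend, 6 residual degrees of freedom, two-sided, Benjamini-Hochberg adjustment, called under 0.05). Of the 14 member probe sets 4 passed this filter, those of Cd74, H2-Aa (2) and H2-Eb1, mostly through their Chief arrays, so that a high level there was built in. Folds written "at least" set each array of the dimmer group to the higher of its value and its array median. The number of arrays limits the precision. A list gene is represented by its brightest tested probe set; named list genes are up to 3 called genes per list and comparison with the largest difference, or the 2 brightest, and a few fixed ones, with Ctss, H2-Ea, C1qb and C1qc chosen after their values were seen. Members and lists were chosen with earlier results of these data known. Replicate numbers showed no shared deviation between groups: same-numbered arrays of different groups had deviations correlated at -0.018 to 0.055. The labels do not say whether same-numbered arrays shared an animal or a day.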

Additional observations from a re-analysis of the deposited data

How the results depend on the processing

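By limma, 240 probe sets were called for Isthmus against Chief (50 higher, 190 lower), 4265 for Parietal against Chief (1861 higher, 2404 lower) and 4817 for Isthmus against Parietal (2657 higher, 2160 lower). For Isthmus against Chief the count was 119 with no filter, 424 with a pseudocount of 64, 116 with only the 2 groups compared, 33 with no intensity trend and 51 without Chief replicate 3 and Parietal replicate 1 together. When single arrays were left out it ranged from 28 (without Chief replicate 1) to 233, with 58 without Isthmus replicate 1, 112 without Isthmus replicate 2, 158 and 100 without Parietal replicate 2 or 3 and 130 without Chief replicate 3. The other counts ranged from 2993 to 4173 for Parietal against Chief and from 3532 to 5108 for Isthmus against Parietal. With 1 probe set per gene, which leaves fewer features to test, they were 2675 and 3035, and without Chief replicate 3 and Parietal replicate 1 together Parietal against Chief gave 2476. Centring each array on its median moved the median of all tested probe sets to 0.37, 0.56 and -0.22 in the 3 comparisons, against 0.00, -0.13 and 0.09 as deposited, and turned the splits to 276 higher and 60 lower, 4911 and 1244, and 1810 and 3082. With the replicate number as a block the counts were 197, 4106 and 4639, and no call of H2-Aa or H2-Eb1 changed. Every H2-Aa and H2-Eb1 difference tested kept its sign in all alternatives run. Of the list genes, Mif, with no call, changed sign: for Isthmus against Chief to 0.17 with centring, and -0.45 to 0.12 as single arrays were left out (0.12 without Isthmus replicate 2), for Parietal against Chief to -0.094 with quantile normalization, -0.095 without both Chief replicate 3 and Parietal replicate 1, and -0.13 to 0.21 as single arrays were left out (below 0 without Parietal replicate 1, Parietal replicate 3 or Chief replicate 2), and for Isthmus against Parietal -0.46 to 0.11 as single arrays were left out (0.11 without Isthmus replicate 2). The cause of these changes was not tested.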

Other observations

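Cd74 at the cell surface is also a receptor for the cytokine Mif, with Cd44 as its signalling partner. Mif was at 11.31, 10.46 and 11.59 log2 in Isthmus, 11.57, 10.96 and 11.50 in Parietal and 11.61, 11.04 and 11.34 in Chief samples, with the groups overlapping and no call (limma adjusted p = 0.786 for Isthmus against Chief and 0.981 for Parietal against Chief). Cd44, a hyaluronan receptor, was at 9.83, 8.96 and 9.15 in Isthmus, 5.77, 4.24 and 3.92 in Parietal and 7.45, 5.89 and 10.08 in Chief samples. It was higher in Isthmus than in Parietal samples (limma difference 4.67, adjusted p = 0.00317, called in all 20 alternatives) and lower in Parietal than in Chief samples (-3.16, adjusted p = 0.0313, called in 9 of 20 alternatives, 0.00805 to 0.139). Cd44 was above the array median on 3 Isthmus, 2 Chief and 0 Parietal arrays, so it was tested only through the groups where it was called high. Ddt, a relative of Mif that binds the same receptor, was lower in Isthmus than in Parietal samples (9.90 ± 0.25 against 11.09 ± 0.23, SD, n = 3 each; limma adjusted p = 0.00836).

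Costimulatory molecules, which antigen-presenting cells need beside class II, were read together with the checkpoint ligands Cd274 and Pdcd1lg2 and gave no call. Of these 6 genes, 3 were tested (Cd40, Cd80 and Icosl) and 0 passed in any comparison by limma, with 0 having an unadjusted p under 0.05. Cd86 was at 2.10, 1.55 and 1.90 log2 in Isthmus, 2.19, 1.15 and 2.06 in Parietal and 4.09, 1.14 and 2.86 in Chief samples, below every array median.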
